A study of Homo sapiens with 8 samples.

Results

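The mitochondrial ribosomal protein genes are the nuclear genes named MRPL (large subunit) and MRPS (small subunit). They were chosen by name alone, as every gene symbol made of MRPL or MRPS, a number and at most a letter A, B or C. This gave 75 genes, 47 MRPL and 28 MRPS, of 25918 gene models in the deposited table, and each gene had 1 model. The table covered human cultures labelled HepG2, an established line derived from a liver tumour, after 4 treatments. UV cultures received ultraviolet light at 0.04 J/cm2 and recovered for 4 h. Heat shock cultures were held at 43 °C for 30 min, and the labels do not make clear whether these recovered too. HGF cultures were kept overnight with hepatocyte growth factor at 10 ng/ml, and IFNg cultures overnight with interferon gamma at 200 ng/ml. All grew in DMEM with serum and antibiotics, and no untreated culture was analysed here. Each treatment had 1 library made from RNA bound by an antibody to N6-methyladenosine (m6A) and 1 library of its input RNA, 8 libraries in all. With 1 library of each kind per treatment there was no replicate spread, and no difference below was tested.

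Mitochondrial ribosomes translate the few proteins encoded by mitochondrial DNA, all of them parts of the respiratory chain and ATP synthase. Their proteins are encoded in the nucleus, made in the cytosol and imported, while their ribosomal RNAs come from the mitochondrial genome. Many MRPL and MRPS proteins descend from bacterial ribosomal proteins and others exist only in mitochondria. The symbol does not always give the subunit: the MRPS18A and MRPS30 proteins sit in the large subunit, and MRPS36 is also known as a part of the alpha-ketoglutarate dehydrogenase complex. m6A is the methyl mark most often found inside messenger RNA, is laid down largely at GAC-containing sequences by the METTL3 and METTL14 complex, and is densest near stop codons.

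For each treatment the table gave a rank of expression and a list of m6A peaks with their transcript position, segment and score. The rank is written here as a percentile, from 0 to 100, of the gene model among all gene models of that treatment. It holds no amount and no read depth, so no fold change can be given and the depth of the libraries is unknown. The header does not say which of the bound and input libraries the rank came from. The lowest rank was shared by many gene models and is called the floor here. It lay between 18.4 (IFNg) and 45.5 (UV), with no MRPL or MRPS gene at it. The table listed 13307 peaks in UV, 9803 in heat shock, 9111 in HGF and 5280 in IFNg, so peak counts are set below beside those of wider sets of gene models in the same treatment. All 75 genes passed a filter of percentile 60 in at least 1 treatment, as did 12624 gene models in all.

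The defining markers of the labelled cell type were low. Of 8 hepatocyte markers, 7 lay under percentile 60 in every treatment, 7 were at the floor in at least 1 treatment, and none had a listed peak. Albumin (ALB) lay at 45.5 in UV, which is the floor there, and at 57.6, 24.9 and 22.3 in heat shock, HGF and IFNg. The fetal liver marker AFP lay at 45.5, 32.7, 20.4 and 22.4, at the floor in all but IFNg. Only TTR exceeded 60, with 76.1 in UV and 71.5 in heat shock against 43.0 in HGF and 42.0 in IFNg. Of 6 fibroblast and endothelial markers, ranging from 18.5 to 83.6, 4 lay under percentile 60 in every treatment, among them the collagen gene COL1A2 (18.5 to 45.5). The other 2 ranked higher: the collagen gene COL1A1 reached 83.6 in HGF and decorin (DCN) 80 in heat shock. The 4 blood markers ranged from 18.4 to 60.9. These values go against the HepG2 label, so the samples are called here the cultures labelled HepG2, and the reason was not tested. In bulk RNA, fewer cells of a type and less RNA per cell cannot be told apart.

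The genes ranked high in every treatment. Their median percentile was 92.2 in UV, 91.2 in heat shock, 90.4 in HGF and 90.8 in IFNg, against 75.6 over all gene models past the filter in each treatment. A percentile of 90 or more was reached by 46 of 75 genes in UV, 45 in heat shock, 39 in HGF and 41 in IFNg, against 20.5% of gene models past the filter in each. No gene fell below 59.4 in any treatment. Other genes of related function give the scale. The 80 cytosolic ribosomal protein genes ranked higher, with medians of 98.8, 98.4, 98.3 and 98.9 in UV, heat shock, HGF and IFNg. The 79 nuclear genes of oxidative phosphorylation had medians of 94.3, 92.3, 95.1 and 93.9. The 44 genes of mitochondrial translation, ribosome assembly and mitochondrial RNA found in the table, of 46 listed, had medians of 85.9, 85.3, 78.9 and 80.2. This list holds 7 ribosomal proteins under other names (DAP3, GADD45GIP1, AURKAIP1, ICT1, MRP63, CHCHD1 and PTCD3), a split made after the values were seen. Those 7 had medians of 96.2, 90.9, 93.3 and 92.7, and the other 37 had medians of 85.7, 83.7, 77.4 and 80.1.

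**Figure D1:**
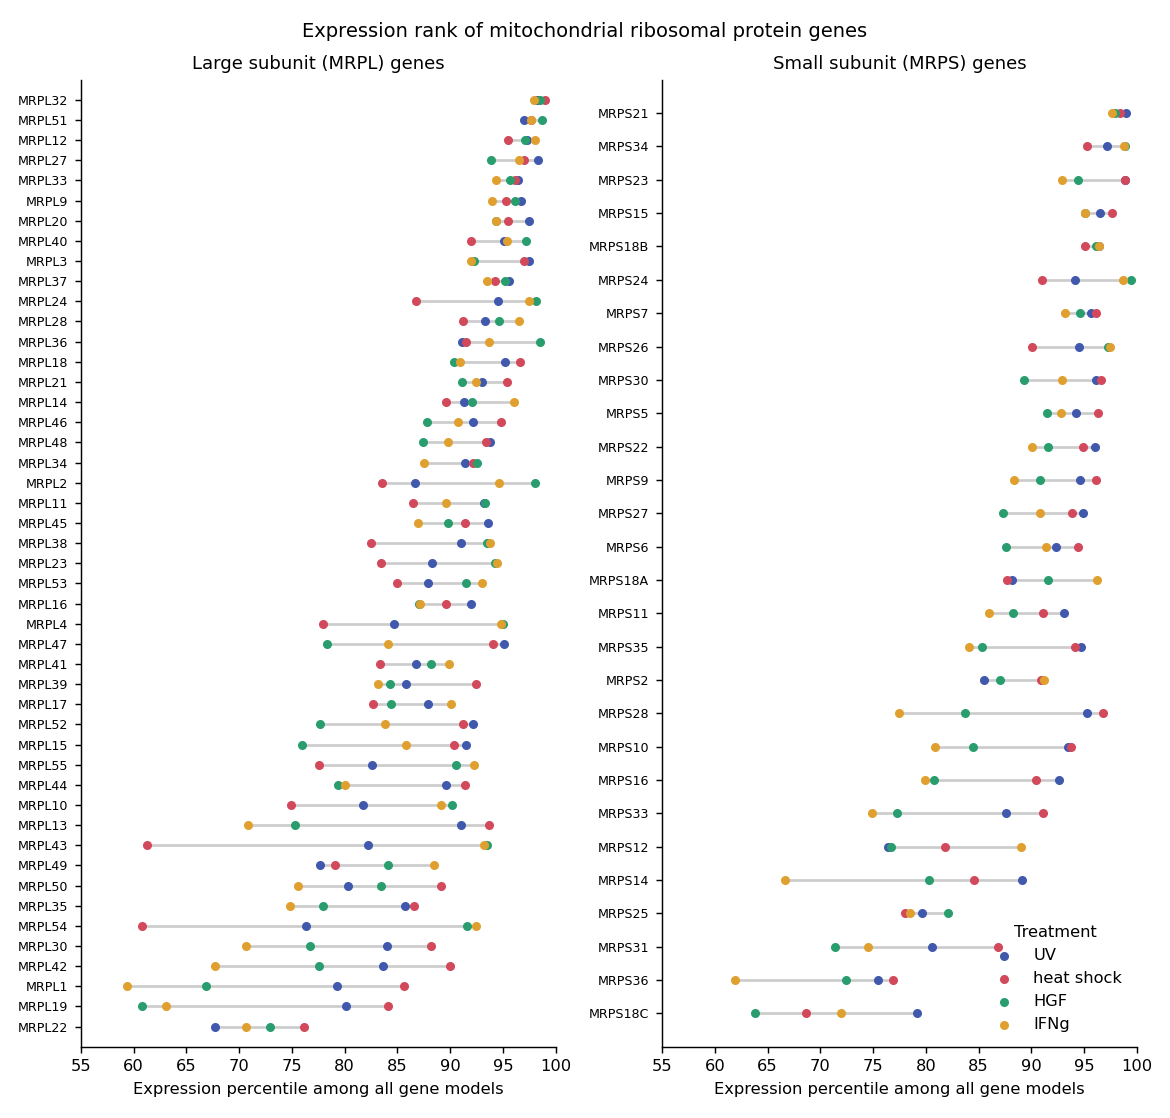
Expression percentile (x axis) of each MRPL gene (left) and MRPS gene (right) in the 4 treatments, 1 point per treatment and a grey line over their range, ordered by the mean of the 4. The points of the highest genes, such as MRPL32 and MRPS21, nearly coincide, while the red heat shock points of MRPL43 and MRPL54 lie far to the left of the others.

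The highest mean ranks belonged to genes of both subunits. MRPL32, whose protein is trimmed by the m-AAA protease on its way into the ribosome, lay at 98.2 in UV, 99 in heat shock, 98.5 in HGF and 97.9 in IFNg. MRPS21 lay at 99, 98.4, 97.9 and 97.6 in the same order, and MRPL51 at 97.0, 97.7, 98.7 and 97.7. Next came MRPS34, at 97.2, 95.3, 98.9 and 98.8, and MRPL12, at 97.3, 95.5, 97.1 and 98.0. MRPL12 belongs to the stalk that recruits translation factors. Across the 4 treatments none of these 5 genes moved by more than 3.58 points, and their order is not separated by a spread between replicates.

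The 5 lowest mean ranks lay between 70.9 and 72.8, and these genes varied more. MRPS18C lay at 79.2 in UV, 68.6 in heat shock, 63.8 in HGF and 72.0 in IFNg. MRPL22, whose bacterial counterpart lines the exit tunnel, was the only one of this group lowest in UV, with 67.7, 76.1, 72.9 and 70.6. MRPL19 lay at 80.1, 84.1, 60.8 and 63.1, and MRPL1, of the mobile L1 stalk, at 79.3, 85.6, 66.9 and 59.4. In both, UV and heat shock lay above HGF and IFNg with no overlap. MRPS36 is described below.

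The MRPS18 paralogs, which are related to the same bacterial protein and whose products sit at different places in the ribosome, did not rank alike. MRPS18B stayed between 95.1 and 96.4 in all 4 treatments. MRPS18A lay at 88.2 in UV, 87.7 in heat shock, 91.6 in HGF and 96.2 in IFNg, highest in IFNg. MRPS18C, given above, was the lowest of the 3 in each treatment. Each of the 3 has at least 1 pseudogene named after it in GENCODE 29, as do 32 of the 75 genes, and how reads shared with such copies were counted is not given in the sources used here.

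Few genes stood apart in a single treatment. A gene was counted when it lay 10 percentile points or more above, or below, the nearest of the other 3 treatments. No gene was counted above the others in UV, heat shock, HGF or IFNg, where 1.93%, 2.87%, 1.57% and 3.39% of gene models past the filter were. Below the others there were 0 genes in UV (2.17% of gene models), 2 in heat shock (3.98%), 0 in HGF (1.39%) and 2 in IFNg (3.02%), which is 2.67% of the 75 genes in heat shock and in IFNg. These shares are close to or under the background. Percentiles end at 100, so a gene above 90 in 2 treatments could not be counted above the others in any. The high ranks of the 75 genes left less room for this than those of the gene models, so the absence of such genes shows little.

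Both genes low in heat shock encode large subunit proteins that exist only in mitochondria. MRPL43, at chr10:102731124-102737262 on the minus strand in the table's coordinates, whose build the sources used here do not give, lay at 82.2 in UV, 61.3 in heat shock, 93.5 in HGF and 93.2 in IFNg. MRPL54, at chr19:3713665-3718563 on the plus strand, lay at 76.3, 60.8, 91.6 and 92.4. In both, heat shock was lowest, UV was next and HGF and IFNg lay together at the top. Both genes low in IFNg carry MRPS symbols. MRPS14, of bacterial descent, lay at 89.1, 84.6, 80.3 and 66.7, and MRPS36 at 75.5, 76.9, 72.4 and 61.9. For these the order was reversed, with UV and heat shock at the top and IFNg lowest. After a correction for GC content, described below, 0 genes lay below the others in IFNg and 1 in HGF. The shares of all gene models apart in a treatment after this correction are not given here.

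The 4 treatments fell into pairs. Across the 75 genes, Spearman's correlation of the percentiles was 0.885 for UV with heat shock and 0.926 for HGF with IFNg, but 0.361 to 0.625 between treatments of different pairs. Over the 12624 gene models past the filter the values were 0.894, 0.888 and 0.664 to 0.789. These are correlations across genes of the same libraries, and genes are not independent replicates. Within either pair, 3 of 75 genes (4.0%) differed by 10 points or more, against 16.4% of gene models past the filter for UV with heat shock and 14.7% for HGF with IFNg. Between treatments of different pairs it was 15 to 25 genes (20% to 33.3%), against 30.5% to 44.2% of gene models, so the pairs are seen over all gene models too. The mean percentiles of the 75 genes span 70.9 to 98.4, against 33.0 to 100 for those gene models. Ranks near the top have less room to differ, and a narrower range changes a correlation. No set of like rank was compared here, so lower shares or correlations are not shown to be a trait of these genes. The labels give no batch or date, so a handling difference that follows the pairs and the treatments cannot be told apart.

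The mean percentile of UV and heat shock minus that of HGF and IFNg had a median of 2.2 points over the 75 genes and ran from -23.5 for MRPL54 to 20.2 for MRPL19. It was above 0 in 47 of 75 genes, against 53.5% of gene models past the filter. In 40 genes both UV and heat shock exceeded both HGF and IFNg (36.3% of gene models), and in 20 both lay under (30.9%). A difference of 10 points or more upward was seen in 15 genes (15.5% of gene models) and downward in 6 (17.6%), all 6 of them MRPL genes. Here too the high ranks of the 75 genes leave less room for a difference than those of the gene models. The median was 4.74 points for MRPS genes, 20 of 28 of them above 0, and 0.903 for MRPL genes, 27 of 47 of them above 0.

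Genes at the ends of this scale show its extent. MRPL13 lay at 91.0 in UV and 93.7 in heat shock but 75.3 in HGF and 70.8 in IFNg. MRPS28 lay at 95.3 and 96.8 against 83.7 and 77.5. In the other direction, MRPL4, whose bacterial counterpart reaches into the exit tunnel, lay at 84.7 and 77.9 against 95 and 94.8. In these 3 genes the values of the pairs did not overlap. They were chosen after their values were seen.

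The difference followed the base composition of the transcript. GC content was read from the GENCODE 29 transcript of the same symbol for all 75 genes and for 88.2% of gene models past the filter. Spearman's correlation with GC content was -0.824 over the 75 genes and -0.729 over 11129 gene models, across genes that share the same libraries. The genes were split into 4 classes by GC content. In the lowest class, 35% to 43.1%, all 19 genes ranked higher in UV and heat shock, with a median difference of 10.7 points. The next classes had medians of 5.03 points, 16 of 19 genes above 0, and 1.85 points, 11 of 18 above 0. In the highest class, 55.4% to 71.9%, 1 of 19 genes was above 0, and the median was -5.07 points. The median GC content was 52.0% for MRPL and 47.8% for MRPS genes. After subtracting from each treatment the median rank of gene models of like GC content, the median difference was 2.83 points for MRPL and 3.01 for MRPS genes, and 53 of 75 genes were above 0 (52.8% of gene models). The MRPL and MRPS medians were closer together after this step than before it. Why GC content moved with the difference was not tested.

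**Figure D2:**
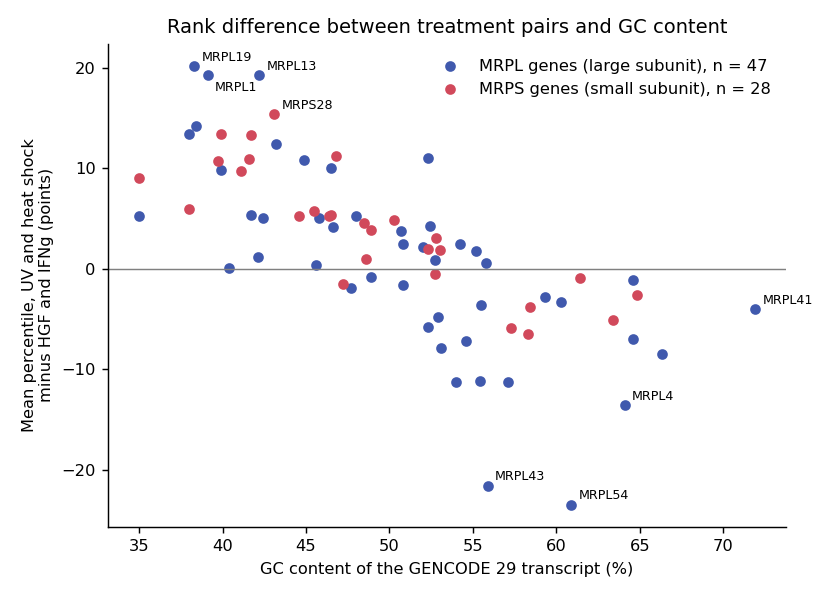
Difference in expression percentile between the mean of UV and heat shock and the mean of HGF and IFNg (y axis, points) against the GC content of the GENCODE 29 transcript (x axis, percent), 1 point per gene, blue for 47 MRPL and red for 28 MRPS genes. Points fall from upper left to lower right, with MRPL19 at 20.2 and MRPL54 at -23.5 points at the ends.

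An m6A peak was listed for 48 of the 75 genes (64.0%) in at least 1 treatment. In UV 43 genes had a peak (57.3%, exact 95% binomial interval 45.4% to 68.7%), in heat shock 26 (34.7%, 24% to 46.5%), in HGF 24 (32.0%, 21.7% to 43.8%) and in IFNg 17 (22.7%, 13.8% to 33.8%). The intervals cover counting error over genes only. Of all gene models past the filter, 54.5%, 43.9%, 42.2% and 27.8% had a peak. Of 6871 coding gene models in the same range of mean percentile, 70.9 to 98.4, it was 68.2%, 56.8%, 53.5% and 39.3%, each above the share of mitochondrial ribosomal protein genes. In heat shock, HGF and IFNg this background lay above the interval, and in UV within it.

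The transcripts are short, and coding gene models of similar length had peaks about as often. The median GENCODE 29 transcript length was 1455 nt, against 3045 nt over gene models past the filter with a length. Among 856 coding gene models of the same range of mean percentile and between the quartiles of length of the 75 genes, 1032 to 1736 nt, a peak was listed for 54.9% in UV, 38.1% in heat shock, 32.0% in HGF and 17.9% in IFNg. All 4 values lie within the intervals of the 75 genes. Neither comparison set leaves out the 75 genes themselves. The set of like length covers only the middle of their lengths, and its median mean percentile was lower, 86.3 against 90.2. Of the cytosolic ribosomal protein genes, which rank higher, 17.5%, 18.8%, 8.75% and 6.25% had a peak, and of the oxidative phosphorylation genes 43.0%, 35.4%, 19.0% and 6.33%. Each treatment was also cut to its 5280 highest scored peaks, the number that IFNg lists, a setting chosen after the data had been seen. A peak was kept by 11 genes in UV, 8 in heat shock, 11 in HGF and 17 in IFNg, so the order from UV to IFNg did not hold. The lowest score kept was 4.51 in UV, 3.6 in heat shock, 3.07 in HGF and 2.0 in IFNg, so the cut was strictest in UV. With scores of 3 or more, 28, 15, 11 and 5 genes had a peak. Shares of all gene models at these cuts are not given here, so the counts describe the 75 genes only.

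**Figure D3:**
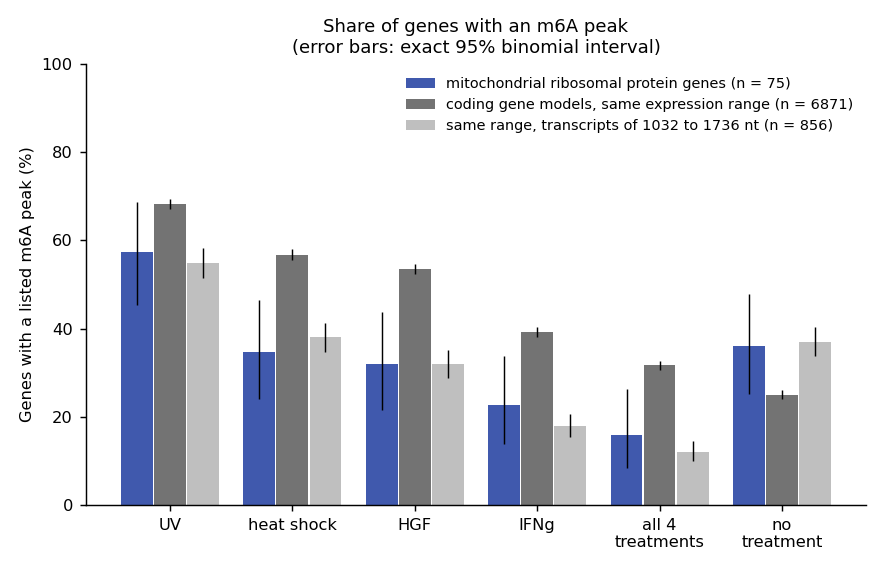
Share of genes with a listed m6A peak (y axis, percent) in each treatment, in all 4 and in none, for the 75 mitochondrial ribosomal protein genes (blue), 6871 coding gene models in their range of mean percentile (dark grey) and the 856 of these with transcripts of 1032 to 1736 nt (light grey). Error bars are exact 95% binomial intervals, and the blue bars lie nearer to the light grey than to the dark grey ones.

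The number of treatments with a peak varied between genes. A peak was present in exactly 1 treatment for 15 genes (20%), in 2 for 16 (21.3%) and in 3 for 5 (6.67%). Of coding gene models in the same range it was 12.3%, 14.1% and 16.8%, and of those of like length 19.3%, 19.3% and 12.1%. A peak was present in all 4 for 12 genes (16%, against 31.7% of coding gene models in the same range and 12.1% of those of like length). None was listed for 27 genes (36.0%, against 25.1% and 37.1%). UV was the only treatment with a peak for 11 genes (14.7%, against 7.84% of coding gene models in the range and 13.8% of those of like length). Heat shock was the only one for MRPL4, HGF for MRPL16 and MRPS14, and IFNg for MRPS35. By score, the highest of these single-treatment genes were MRPL19 (4.53, UV), MRPS14 (3.76, HGF), MRPS7 (3.46, UV), MRPL54 (3.16, UV) and MRPL49 (3.07, UV). The score is the authors' own measure of enrichment, with a formula that is not given in the sources used here. Scores in the table start at 2. Their medians over all gene models were 4.07 in UV, 3.72 in heat shock, 3.33 in HGF and 3.01 in IFNg. An order by score across treatments therefore does not compare like with like.

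Genes without a peak were not simply the lowest ranked. Of 13 genes with a mean percentile of 95 or more, 12 had a peak, the exception being MRPL33. Between 90 and 95, 15 of 26 had a peak, between 80 and 90, 19 of 27, and under 80, 2 of 9. The 27 genes without a peak had a median GC content of 43.2%, the 36 with a peak in 1 to 3 treatments 52.4%, and the 12 with a peak in all 4 54.1%. In the lowest of the 4 GC classes 6 of 19 genes had a peak, and in the highest 15 of 19. The median mean percentiles of the 3 classes by peak status, 87.9, 90.8 and 89.6, were close together. Peak shares of all gene models by rank or GC content are not given here. Whether these trends are particular to the 75 genes is therefore not known.

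MRPL12 and MRPL10, whose proteins together form the stalk, MRPL14, MRPL17, MRPL27, MRPL34, MRPL35, MRPS12, MRPS25, MRPS26, MRPS28 and MRPS30 had a peak in all 4 treatments. To compare positions, peaks of a gene within 100 nt of each other were joined into 1 site, which gave 72 sites from 133 peaks. Of these, 36 sites (50%) were listed in 1 treatment, 20 (27.8%) in 2, 7 (9.72%) in 3 and 9 (12.5%) in all 4, against 40.3%, 25.9%, 17.4% and 16.5% of the sites of all gene models. UV alone listed 20 sites (27.8%), heat shock 7 (9.72%), HGF 4 (5.56%) and IFNg 5 (6.94%), against 21.0%, 5.07%, 9.0% and 5.22% of all sites. A further 11 sites (15.3%) were listed in UV and heat shock only and 2 (2.78%) in HGF and IFNg only, near the 15.1% and 2.26% of all sites. The 9 sites in all 4 treatments belonged to MRPL10, MRPL14, MRPL17, MRPL27, MRPL34, MRPL35, MRPS12, MRPS25 and MRPS26. In MRPL12, MRPS28 and MRPS30 different sites made up the 4 treatments.

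MRPL35, at chr2:86280067-86293988 on the plus strand in the table's coordinates, held the most peaks, 7 at 3 sites, and the highest score. Its main site, 2644 to 2651 nt from the transcript start, lay in the 3′ untranslated region (UTR), in a last exon of 2875 nt, and the other 8 sites found in all 4 treatments lay around the stop codon. The score was 6.88 in UV, 5.93 in heat shock, 6.31 in HGF and 5.67 in IFNg, and in every treatment it was above 95% of all listed peaks. A site around the stop codon at 441 to 474 nt was listed in HGF (2.70) and IFNg (2.17) only, and another site, at 2325 nt, in heat shock (2.82). The 4 listed positions of the main site differed by at most 7 nt.

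MRPL17, a large subunit gene of bacterial descent, had the next highest score of a site in all 4 treatments. At 664 to 679 nt, around the stop codon, it scored 5.90 in UV, 4.61 in heat shock, 6.37 in HGF and 4.28 in IFNg. MRPS25 scored 6.34, 5.79, 3.37 and 2.67 at 652 to 711 nt, so that both stress treatments lay above both ligands. The only site of MRPL3, at the transcript start, scored 6.54 in UV and 4.76 in heat shock and was not listed in HGF or IFNg. MRPL35, MRPL3, MRPL17 and MRPS25 supplied the 5 highest scores. Beside MRPL35, the genes with the most peaks were MRPS25 and MRPS30 with 6 each and MRPL12, MRPL17 and MRPS26 with 5 each.

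The remaining sites in all 4 treatments had lower scores. MRPL10 scored 4.15 in UV, 2.09 in heat shock, 3.00 in HGF and 2.26 in IFNg at 824 to 907 nt, and MRPL27, whose bacterial counterpart reaches the peptidyl transferase centre, 3.84, 3.27, 2.95 and 2.76 at 536 to 570 nt. MRPL14, which binds a factor that keeps the subunits apart, scored 3.55, 3.21, 2.01 and 2.46 at 453 to 562 nt. MRPS12, of the decoding centre, scored 3.45, 2.78, 2.10 and 2.56 at 757 to 804 nt. In these 4 genes UV was highest. MRPL34 scored 2.17, 2.54, 3.26 and 3.48 at 650 to 684 nt, and MRPS26 3.24, 3.69, 3.09 and 3.61 at 658 to 666 nt. In these UV was not highest, with the order turned over in MRPL34. Over all peaks, the median score of the 75 genes was 3.06 in UV, 3.03 in heat shock, 2.82 in HGF and 2.69 in IFNg, under the medians of coding gene models in the same range, 3.97, 3.66, 3.23 and 2.96.

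**Figure D4:**
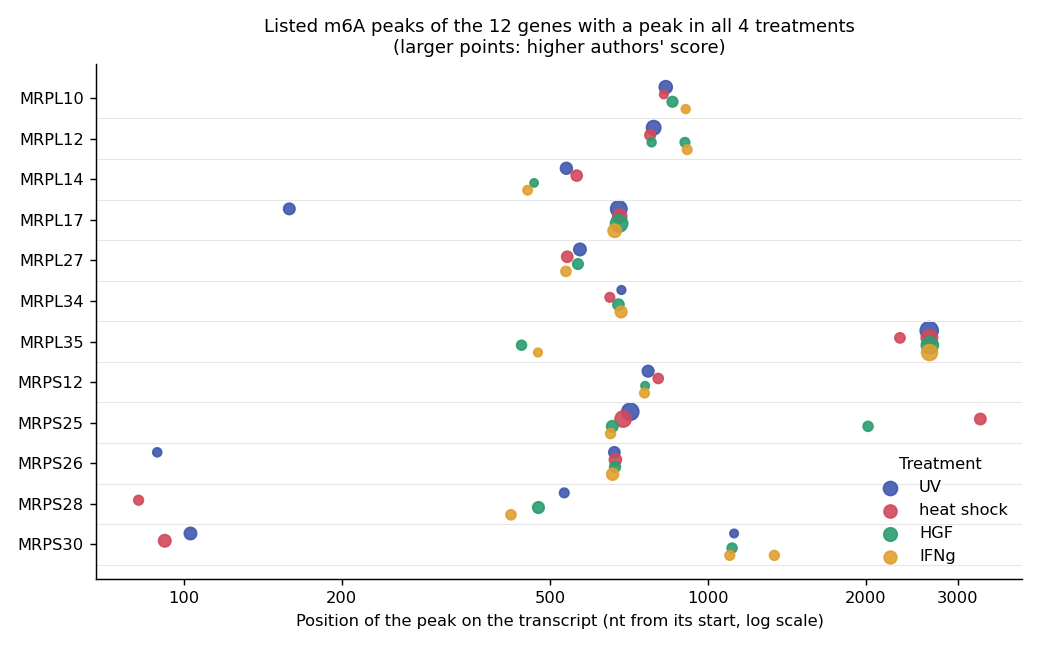
Position of every listed m6A peak on the transcript (x axis, nt from its start, log scale) for the 12 genes with a peak in all 4 treatments, coloured by treatment and sized by the authors' score. In 9 genes the 4 colours stack at a common site, as for MRPL35 at 2644 to 2651 nt, and peaks before 200 nt are UV or heat shock only.

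The peaks gathered at the stop codon. Of 133 peaks, 77 (57.9%) were labelled by the authors as around the stop codon, against 28.0% of 36551 labelled peaks of all gene models. These pooled counts take a site once for each treatment that lists it, so sites listed in several treatments weigh more and no interval is given. A further 24 (18%) lay at the transcript start (6.69% of all), 20 (15.0%) in the 3′ UTR (20.8%), 11 (8.27%) in the coding sequence (42.0%) and 1, of MRPL38, in the 5′ UTR. The share around the stop codon was 54.7% in UV, 50% in heat shock, 71.4% in HGF and 60% in IFNg, against 27.2%, 27.4%, 29.4% and 29% of all peaks. Over the 4 treatments together the share was 44 of 76 peaks for MRPL and 33 of 57 for MRPS genes, but by treatment it differed both ways. It was 46.9% of 32 MRPL peaks and 66.7% of 21 MRPS peaks in UV, and 87.5% of 8 and 41.7% of 12 in IFNg, with intervals that overlap and no test. For oxidative phosphorylation genes the order was turned over, with 67.0% of 88 peaks at the start and 10.2% around the stop codon.

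Counted by gene, the shares lay under those of coding gene models in the same range in the coding sequence and, by less, in the 3′ UTR. A peak around the stop codon was listed for 29 genes in UV (38.7%), 16 in heat shock (21.3%), 19 in HGF (25.3%) and 12 in IFNg (16%). Of coding gene models in the same range of mean percentile it was 34.9%, 27.5%, 26.4% and 17.3%, within the intervals in every treatment. Of those of like transcript length it was 27.7%, 18.9%, 17.6% and 10.5%, each under the share of the 75 genes and also within its interval. A peak in the coding sequence was listed for 3 genes in UV (4.0%), 1 in heat shock (1.33%), 2 in HGF (2.67%) and 5 in IFNg (6.67%). Of coding gene models in the range it was 27.5%, 23.5%, 24% and 19.2%, above every interval, whose upper ends were 11.2%, 7.21%, 9.3% and 14.9%. Of those of like transcript length it was 10.7%, 7.01%, 7.36% and 3.97%, inside the intervals, so that coding genes of this length also had few. Peaks in the 3′ UTR were listed for 6, 5, 5 and 3 genes (8.0%, 6.67%, 6.67% and 4.0%), against 20.1%, 16%, 15.0% and 9.84% of coding gene models in the range and 8.88%, 6.31%, 6.54% and 3.97% of those of like length.

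**Figure D5:**
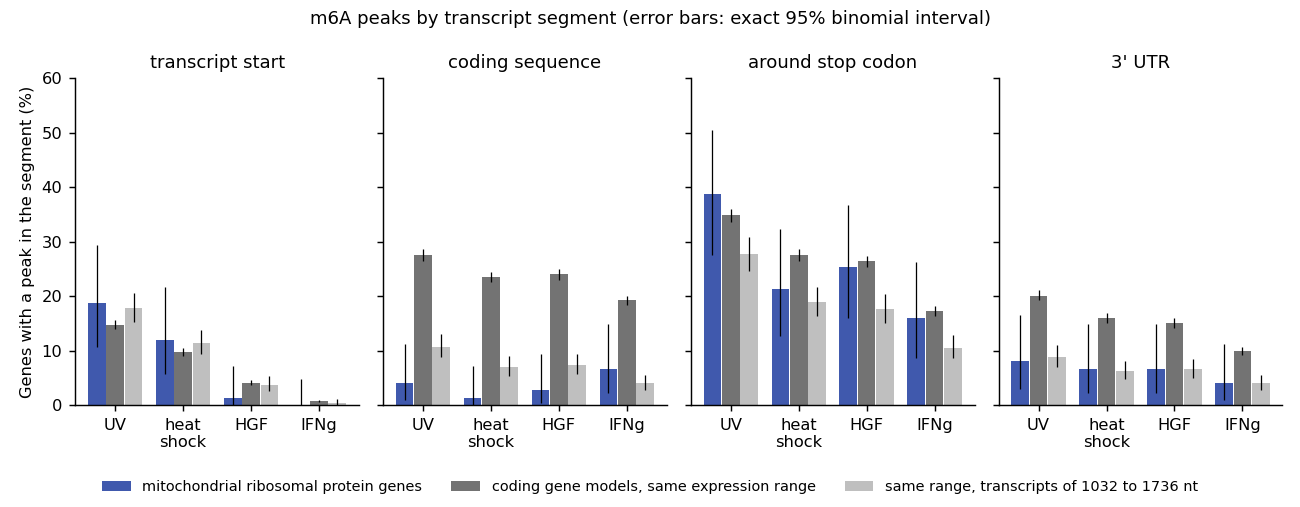
Share of genes with at least 1 m6A peak (y axis, percent) at the transcript start, in the coding sequence, around the stop codon and in the 3′ UTR, by treatment, for the 75 genes (blue), 6871 coding gene models in the same range of mean percentile (dark grey) and 856 of these with transcripts of 1032 to 1736 nt (light grey). Error bars are exact 95% binomial intervals, and the widest gap between blue and dark grey is in the coding sequence.

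Coding sequence peaks were few enough to name. MRPL37 had a site at 285 to 287 nt in UV (3.51) and heat shock (3.05), and MRPL44, which carries a ribonuclease III-like domain, at 482 to 501 nt in UV (2.37) and HGF (3.23). MRPS30 had a site at 1101 to 1122 nt in UV (2.10), HGF (2.68) and IFNg (2.60). The others were each listed in IFNg alone, for MRPS15 (2.35), MRPS2 (2.70), MRPS35 (2.99) and MRPS5 (2.77). All 5 genes with a coding sequence peak in IFNg were therefore MRPS genes, 17.9% of 28 (6.06% to 36.9%), against 0 of 47 MRPL genes (up to 7.55%). The 2 intervals overlap, and in IFNg such a peak was listed for 19.2% of coding gene models in the range and 3.97% of those of like length. The MRPS30 protein sits in the large subunit, so the split is by symbol and not by subunit. These genes were grouped after their values were seen.

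Peaks at the transcript start were a feature of UV and heat shock. They were listed for 14 genes in UV, 9 in heat shock, 1 in HGF and 0 in IFNg, that is 18.7%, 12%, 1.33% and 0.0% of the 75 genes. Of coding gene models in the same range it was 14.7%, 9.71%, 4.03% and 0.713%, so the same order held over this wider set. Of those of like transcript length it was 17.8%, 11.4%, 3.74% and 0.35%, close to the shares of the 75 genes in UV and heat shock. In UV they belonged to MRPL2, MRPL3, MRPL9, MRPL15, MRPL17, MRPL19, MRPL20, MRPL24, MRPL46, MRPL49, MRPL51, MRPS23, MRPS26 and MRPS30. In heat shock they belonged to MRPL2, MRPL3, MRPL20, MRPL32, MRPL37, MRPL51, MRPS18A, MRPS28 and MRPS30, so 5 genes had them in both. The single start peak in HGF was that of MRPS14. The 24 peaks lay 74 to 162 nt from the transcript start. With each treatment cut to its 5280 highest scored peaks, 3 of 11 peaks of the 75 genes in UV, 3 of 8 in heat shock, 1 of 11 in HGF and 0 of 20 in IFNg were at the start. The shares of all gene models at this cut are not given here.

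The start peaks of the 5 shared genes lay 0 to 35 nt apart between the treatments. All start peaks lay between 74 and 162 nt, which limits how far apart they could be. In MRPL3 they lay at 86 nt in both, and in MRPL2 at 162 nt in both, with scores of 4.79 in UV and 3.66 in heat shock. In MRPL20 they lay at 103 and 95 nt (2.19 and 2.77), in MRPS30 at 103 and 92 nt (3.80 and 3.84), and in MRPL51 at 119 and 154 nt (2.06 and 2.82). UV scored higher in MRPL2 and MRPL3 and heat shock in the other 3.

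Some sites could be placed on a reference transcript, to show the RNA that the antibody bound. A site was matched where a GENCODE 29 transcript of the same symbol had the same strand, exon number and exact exon length and a genomic span within 20 nt of the deposited one. This held for 20 of 72 sites, in 17 genes. GGAC, the best known core of the m6A motif, was searched on the transcript strand in a window of 101 nt centred on each site. It was found in 12 of the 20 windows (60%, exact 95% interval 36.1% to 80.9%) and in 35.5% of 234 windows of the same length that tile the same transcripts. Over all gene models it was found at 59.9% of 4052 matched sites and in 32.1% of 80600 tiling windows. A match describes the letters only and is no methylated site.

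The sites of MRPL10 and MRPL27 are shown since they were listed in all 4 treatments, MRPL37 and MRPL44 since they are the coding sequence sites of MRPL genes, and MRPL4 and MRPL16 since they were listed in heat shock alone and HGF alone. Each is the GENCODE 29 transcript sequence on GRCh38, read 5′ to 3′, with GGAC in capitals. The sequences of 30 nt are cut around a GGAC found in the window, not around the peak. The place of GGAC in them therefore gives no distance to the peak. MRPL10 is chr17:47824123-47824152 (minus strand), MRPL27 chr17:50368057-50368086 (minus), MRPL4 chr19:10259692-10259721 (plus), and MRPL16 chr11:59806449-59806478 (minus). For the 2 coding sites the whole window of 101 nt lies in the coding sequence and is given, MRPL37 at chr1:54200402-54200502 (plus) and MRPL44 at chr2:223959727-223959827 (plus).
MRPL10: gctctcctcaatgGGACatgtggaagaact
MRPL27: tgttgaggccatcGGACagagactggagcc
MRPL4: agctgctctggcaGGACtcacgttacagac
MRPL16: aaccagaacccctGGACatttgagcgaata
MRPL37: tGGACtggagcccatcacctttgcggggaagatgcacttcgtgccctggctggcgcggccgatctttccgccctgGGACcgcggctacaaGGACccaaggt
MRPL44: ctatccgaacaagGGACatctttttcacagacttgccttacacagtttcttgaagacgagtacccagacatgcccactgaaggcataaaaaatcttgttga
The MRPL37 window holds GGAC 3 times and the MRPL44 window 1 time. The methylated base of the motif is its A, which lies 16 nt after the centre of the MRPL10 site and 40 nt before that of MRPL27. For the printed GGAC it lies 16 nt before the centre in MRPL4 and 36 nt before it in MRPL16. These distances are rough. The listed MRPL10 peaks lie from 824 to 907 nt, and those of MRPL27 from 536 to 570 nt. The matched transcripts differ in genomic span from the deposited models by 20 nt for MRPL10 and 13 nt for MRPL27.

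Further sequences of 30 nt, cut around a GGAC in the same way, come from sites listed in fewer treatments. MRPS27 had a 3′ UTR site in UV, HGF and IFNg, with scores of 5.02, 2.78 and 2.40, and a second site around the stop codon in HGF alone (4.82). MRPS16, of bacterial descent, had a 3′ UTR site in UV and heat shock. MRPL20 had the start site in both stress treatments given above, and MRPL54, the gene with the lowest rank in heat shock, had a stop codon site in UV alone. The A of the first printed GGAC lies 45 nt after the centre of the 3′ UTR site of MRPS27 and 46 nt after that of its second site. It lies 15 nt after the centre in MRPS16, 21 nt before it in MRPL20 and 8 nt after it in MRPL54. The windows lie at chr5:72220042-72220071 (minus) for the 3′ UTR site of MRPS27, chr5:72220837-72220866 (minus) for its other site, chr10:73250588-73250617 (minus) for MRPS16, chr1:1407222-1407251 (minus) for MRPL20 and chr19:3767436-3767465 (plus) for MRPL54, again on GRCh38 with GGAC in capitals.
MRPS27 (3′ UTR): atctcgcccttctGGACctgcactgggaga
MRPS27 (stop codon): caaccccgtgccaGGACtcagcagtggcct
MRPS16: ctatgggaggattGGACttttgagttgggc
MRPL20: tgttgagtgttcgGGACgccggcctgcagg
MRPL54: ccgttttcccggaGGACgtGGACttttgtg
No GGAC was found in the matched windows of MRPL34, which was listed in all 4 treatments, MRPL38, MRPS18A, MRPS24, MRPS30, the start site of MRPL37 or either site of MRPS5. This says only that these letters are not in those windows.

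Among the genes of mitochondrial translation, ribosome assembly and mitochondrial RNA, a larger share had a peak in each treatment than among the 75 genes, a difference not tested. Of the 44 found in the table, 29 had a peak in UV (65.9%), 25 in heat shock (56.8%), 26 in HGF (59.1%) and 12 in IFNg (27.3%). Without the 7 ribosomal proteins it was 64.9%, 56.8%, 54.1% and 29.7% of 37. Of gene models past the filter, 54.5%, 43.9%, 42.2% and 27.8% had a peak. Of coding gene models in the range of the 75 genes it was 68.2%, 56.8%, 53.5% and 39.3%. Transcript length was not matched for the 44 genes. A peak in all 4 treatments was listed for 8 of the 44 (18.2%). This compares with 22.4% of gene models past the filter and 31.7% of coding gene models in that range. Among the 8 were DAP3, a small subunit protein, the elongation factor TSFM and the assembly helicases DHX30 and DDX28. None of the 44 was 10 points or more above all other treatments. Below were POLRMT, the mitochondrial RNA polymerase, in heat shock, the recycling factor MRRF and the rRNA methyltransferase RNMTL1 in HGF, and the factors GFM2 and MTFMT in IFNg. POLRMT lay at 71.7, 59.5, 76.5 and 86.2 in UV, heat shock, HGF and IFNg, lowest in heat shock as were MRPL43 and MRPL54. These are 1 gene in heat shock, 2 in HGF and 2 in IFNg, against 3.98%, 1.39% and 3.02% of gene models past the filter. Of the 44 genes, 31 ranked higher in UV and heat shock than in HGF and IFNg, against 53.5% of gene models.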

How the data were processed

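The samples were 8 libraries of 4 treatments, each with 1 m6A-bound and 1 input library. RNA was selected for polyA tails, broken to pieces near 100 nt, pulled down with an antibody to m6A and sequenced after random priming, per the labels' protocols. The authors deposited 1 table per gene model. Its expression quantile is a fraction, multiplied here by 100, and its peak score is the authors' own score, per the file headers. Peak numbers, positions, exons and segments were used as deposited. The sources used here do not give the aligner, peak caller, pooling, genome build, or the library behind the quantile. Coordinates in the table are not those of GRCh38.

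Columns were assigned by the treatment in their names. For comparisons between treatments, the highest floor (45.5) replaced any rank under it. The filter was percentile 60 in any treatment. GC content and length came from the principal GENCODE 29 transcript, and the GC correction subtracted medians in 40 bins. Intervals are exact Clopper-Pearson at 95%. With 1 library of each kind per treatment no test was possible, depth is unknown, and counts and medians stand beside those of all gene models. The tools were SciPy 1.17.1, NumPy 2.4.6 and pandas 2.3.3 under Python 3.11.15, with matplotlib 3.10.9 for figures, and the counting steps were tested on simulated data.

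The genes and gene lists were chosen with earlier results of these data known. Named genes were those apart in a treatment, the 5 highest and 5 lowest by mean rank, those with a peak in all 4 treatments, the 5 with most peaks and ties, the 5 highest scores, up to 5 with a peak in a single treatment, and the MRPS18 paralogs. Others are named for a segment, a matched window or the rank difference. Alternatives were a limit of 5 points, the median of the other treatments as reference, a GC correction, scores of 3 or more, and joining peaks within 50 or 200 nt. Cutting each treatment to as many top-scored peaks as IFNg lists, and leaving IFNg out of the count in all treatments, were chosen after seeing the data.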

Additional observations from a re-analysis of the deposited data

How the results depend on the processing

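Of 75 alternative values for 20 results, 50 stayed within 1.5 times the main count or, for shares, within its interval, and 25 moved. Many of the 50 could not move, namely those for the filter, the choice of gene model and the floors as deposited. The same holds for the IFNg count at its own number of peaks. The 50 are therefore no measure of how stable the results are. With a limit of 5 points, 1 gene lay above all other treatments in UV, 5 in heat shock and 1 in IFNg, and 7 lay below in heat shock, 3 in HGF and 6 in IFNg. Against the median of the other 3 treatments, 8 genes lay above in UV, 10 in heat shock, 4 in HGF and 4 in IFNg, and 3 lay below in UV, 9 in heat shock, 9 in HGF and 13 in IFNg. After the GC correction 1 gene lay below in HGF and 0 in IFNg. With scores of 3 or more, 28 genes had a peak in UV, 15 in heat shock, 11 in HGF and 5 in IFNg, and 3 in all 4. Cut to as many top-scored peaks as IFNg lists, chosen after seeing the data, 11 genes had a peak in UV, 8 in heat shock and 11 in HGF, and 3 in all 4. Shares of all gene models at these settings are not given here, so these counts describe the 75 genes only. Leaving IFNg out, 15 of the 75 genes had a peak in each of the other 3 treatments. The same held for 33.9% of gene models past the filter and 44.4% of coding gene models in the same range of mean percentile. Of those of like transcript length it was 21.0%. The filter, the choice of gene model and the floors could change nothing, since each gene has 1 model, all passed and none lay under the highest floor. The cause of these moves was not tested, beyond fewer peaks being counted at higher scores. With no replicates and unknown depth, a peak that is not listed may lie under the detection limit, and nothing bears on how stable a value is. No paired analysis was possible because each group held 1 library.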
